A study of Mus musculus with 30 samples.

Results

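Acot12 encodes acyl-CoA thioesterase 12, an enzyme of the cytosol that splits acetyl-CoA into acetate and free coenzyme A. It carries hotdog thioesterase domains and a START lipid-binding domain, an arrangement it shares with its paralogue Acot11. Acyl-CoA thioesterases as a family cut the thioester bond of activated acyl groups and so work against the acyl-CoA synthetases, which make that bond. Acetyl-CoA is the common product of carbohydrate and fatty acid breakdown and the building block of fatty acids and sterols, and liver, kidney and intestine are organs in which this traffic is heavy.

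The gene is read here by 1 of the 25030 probes in the authors' expression table, followed over all 30 arrays of the series. The symbol comes from probe lists supplied with the study, which pair symbols with 5619 of these probes. Acot12 was singled out for its difference between small and large intestine on these arrays, so its levels there are a description and carry no test. Tests of Acot12 were confined to the other 13 tissues.

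The series profiled organs of the gut (stomach, small intestine and large intestine), liver, kidney and bladder, lung, heart and skeletal muscle, nervous tissue and eyes (brain cortex, cerebellum, eyes), skin, fat and bone, 15 tissues with 2 arrays each. All tissues came from untreated male C57BL/6 mice of 28 weeks by the sample labels. Another age is stated in the paper. Each array held tissue RNA in Cy3 and one common reference RNA in Cy5, a commercial pool of mouse cell line RNA mixed with RNA of embryonic stem (ES) cells, and the dyes were never exchanged. Values are log2(Cy3/Cy5), so that 0 means an equal signal in tissue and reference, and a difference between tissues is a difference of these ratios. Whole tissues were extracted, so fewer cells of a type and less RNA per cell cannot be told apart. The series description gives replicates as separate animals but names a single replication for bone and fat, although 2 arrays of each are labelled, so what their SD covers is not certain.

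The share of probes detected in Cy3 ranged from 53.9% to 76.8% over the arrays. In 13 of the 15 tissues the arrays of a tissue were nearest to each other, with a median r of 0.98 across probes. The exceptions were fat and large intestine, and large intestine replicate 1 was closer to small intestine replicate 2 (r 0.895) than to the second large intestine array (r 0.798).

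The probe is shown because every Acot12 value rests on this single oligonucleotide, printed 5′ to 3′ as deposited. The probes of Acot4 and Them7 are the thioesterase probes that shared most of its tissue pattern, and that of 0610008F07Rik (now Hnf4aos) followed it most closely among all probes with a symbol.
Acot12: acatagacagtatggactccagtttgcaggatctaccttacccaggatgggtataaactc
Acot4: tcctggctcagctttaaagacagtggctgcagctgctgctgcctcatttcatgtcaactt
Them7: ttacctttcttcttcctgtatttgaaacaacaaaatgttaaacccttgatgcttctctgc
0610008F07Rik: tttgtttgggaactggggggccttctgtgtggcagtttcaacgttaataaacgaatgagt
The Acot12 probe has 60 bases with a GC content of 45% and stands once on each array. No other probe of the array shared a run of 20 bases with it, and its longest run in common with any of the 10 other thioesterase probes was 7 bases. The probes were not placed on a genome here, so the exon or transcript end that each reads is not given.

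Acot12 signal was high in 3 tissues and near the reference ratio in the other 12. The log2 ratio was 7.22 and 7.60 on the kidney arrays, 7.59 and 6.81 on the liver arrays, and 5.17 and 5.86 on the small intestine arrays. On all 24 other arrays it lay between -0.13 and 0.30. The 6 arrays of kidney, liver and small intestine therefore stood apart from every other array, with a gap of 4.87 on the log2 scale between the lowest of them and the highest of the rest.

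The means were 7.41 ± 0.27 in kidney, 7.20 ± 0.55 in liver and 5.52 ± 0.49 in small intestine (SD, n = 2 each). Kidney and liver overlapped in the ratio, since the second-highest of their 4 arrays was a liver array. Cy5 was well above background on none of these 4 arrays. In the Cy3 level alone the tissues did not overlap, at 12.43 and 12.89 in kidney and 12.28 and 12.08 in liver. Both small intestine arrays lay below all kidney and liver arrays, at a distance of 1.68 between the means of liver and small intestine. Below these came cerebellum at 0.21 ± 0.12, brain cortex at 0.20 ± 0.15 and eyes at 0.18 ± 0.17, and the order ended with skin, bladder and heart, the last at -0.08 ± 0.07 (SD, n = 2 each). All 11 pairs of neighbours in the order of these 12 tissues overlapped, so that order carries no information beyond its spread.

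**Figure D1:**
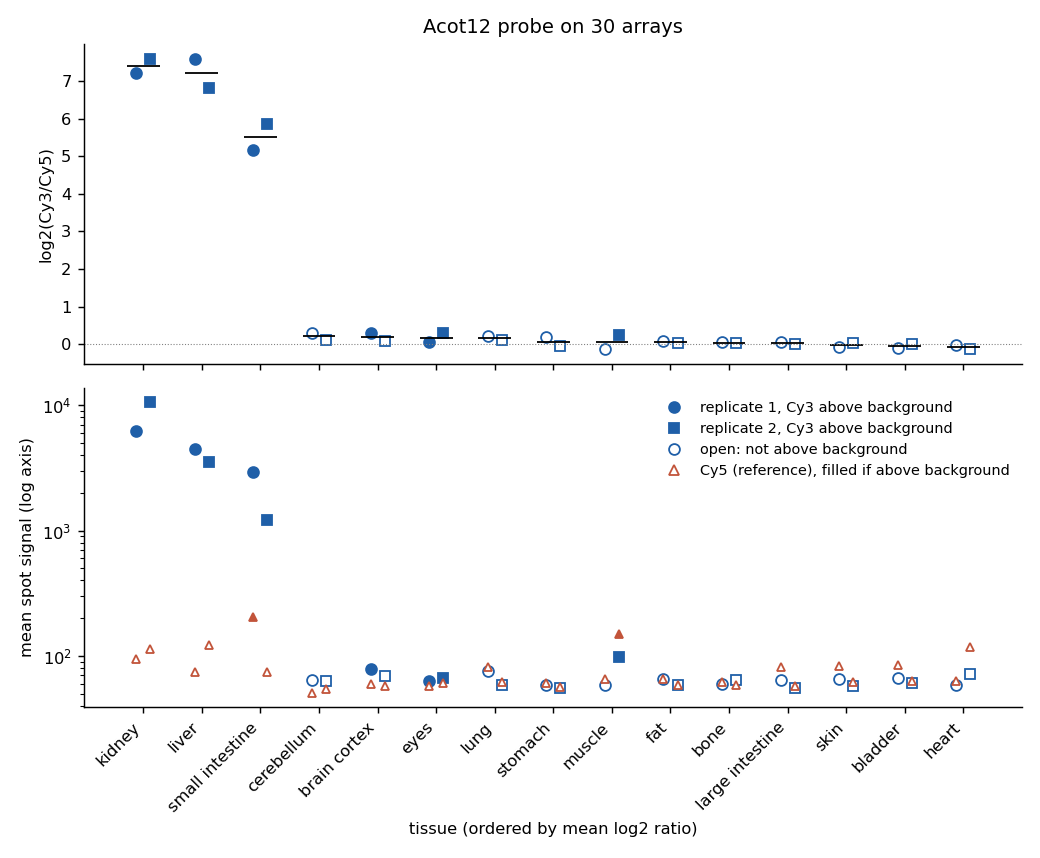
The upper panel plots log2(Cy3/Cy5) of the Acot12 probe on each of the 30 arrays, with bars at the mean of the 2 arrays of a tissue, and the lower panel plots the mean spot signal in Cy3 (tissue, blue) and Cy5 (reference, red triangles) in scanner units on a log axis. The 6 arrays of kidney, liver and small intestine lie between 5.17 and 7.60, all other arrays lie between -0.13 and 0.30, and open symbols mark signals not well above background.

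The spot signals gave the same separation before any normalisation. Cy3 mean signals were 6260 and 10579 scanner units in kidney, 4465 and 3516 in liver, and 2926 and 1224 in small intestine. On the other 24 arrays they lay between 55.8 and 98.3 units, close to the local background, and no Acot12 spot was saturated on any array.

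The image software marked Cy3 as well above background on all 6 arrays of kidney, liver and small intestine. It did so on only 4 of the other 24 arrays, both arrays of eyes, brain cortex replicate 1 and muscle replicate 2. The signals on these 4 were 63.5, 67.2, 78.5 and 98.3 units. The remaining 9 tissues had no array with a measured level, so folds against them are folds over a background signal. Folds were taken in the Cy3 channel after loess and quantile scaling. Per array, the dimmer side was the higher of the probe's own signal and the dimmest signal well above background. Kidney was then 132-fold or more above each of these 9 tissues, liver 104-fold or more and small intestine 46.4-fold or more. In cerebellum, fat and bone that level was the probe's own signal, so the dimmest such spot is no detection limit and these folds are not lower bounds. They hold for that scaling alone and are open to dye bias, as the dyes were not exchanged. Other scalings gave lower folds against the signals of the same 9 tissues, which are at background: down to 39.6 for small intestine in the log2 ratios, to 82.7 for kidney, 59.3 for liver and 32.2 for small intestine with the Cy3 level alone, and to 75.0, 46.9 and 16.3 with median centring. Every log2 difference of Acot12 from these tissues is thus one from a background signal, whose size depends on the processing.

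The reference added little signal of its own. Cy5 was well above background on 2 of the 30 arrays, small intestine replicate 1 and muscle replicate 2, which share a slide, with 205.5 and 149.6 units against a median of 63.5 over all arrays. This bears on the order of the small intestine arrays. Replicate 2 had the higher ratio, 5.86 against 5.17, while replicate 1 had the higher Cy3 signal, 2926 against 1224 units. Their part in the SD of small intestine was not tested. That SD was 0.49 for the ratio, 0.20 for the Cy3 level alone and 2.18 in the authors' table, on the log2 scale throughout.

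Among the 13 tissues outside the intestine, Acot12 differed by the moderated F-test of limma (adjusted p = 1.05e-14), as did 91.9% of the 20929 probes tested, so passing this test sets a probe hardly apart. Acot12 exceeded the mean of the other 12 tissues by 6.51 in liver (SE 0.15, 95% interval 6.19 to 6.83, limma adjusted p = 1.27e-15) and by 6.74 in kidney (SE 0.15, 95% interval 6.42 to 7.06, limma adjusted p = 1.95e-15). A call required a log2 difference of at least 1 and an adjusted p under 0.05, and by this rule 11.6% of the probes were called higher in liver, 10.1% in kidney, and 4% in both.

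The remaining 11 tissues were each called lower, with log2 differences from -1.06 in cerebellum to -1.37 in heart. These values are set by the mean they are taken against, which holds both liver and kidney, and say nothing of differences among the 11. The SE of 0.15 pools the spread over all 13 tissues, and that of the 11 dim tissues, with SDs of at most 0.26, was smaller than the 0.55 between the liver arrays.

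Liver and kidney were then compared directly, a contrast chosen after their values were seen. Liver minus kidney was -0.21 on the log2 scale (SE 0.20, 95% interval -0.64 to 0.22, limma adjusted p = 0.49), so a difference was not detectable with 2 arrays a tissue, and a liver level up to 0.64 lower or 0.22 higher lies within the interval. These ratios divide by a Cy5 signal that was well above background on no liver or kidney array. In the same contrast 19.3% of all probes were called. With the signals as processed by the image software the sign turned, to 0.15, and no call was made. Single liver arrays moved it further: it was 0.18 without liver replicate 2 and -0.60 without replicate 1, where the limma adjusted p was 0.025 but the size stayed below that required for a call.

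Arrays shared slides and scan days, which were read from the files. Liver filled a slide together with heart, and exceeded it by 7.28 there. Kidney shared its slide with bladder alone and exceeded it by 7.45. On the first scan day, which held both, liver exceeded the mean of the 6 dim tissues of that day by 7.08 and kidney by 7.29. Small intestine replicate 2 lay 5.80 above large intestine replicate 1 and 5.79 above the stomach arrays of the same slide, and replicate 1 lay 4.93 above muscle and 5.20 above skin on its slide. Within slides and scan days the arrays of the 3 tissues thus lay 4.93 to 7.45 above those of the dim tissues beside them, which apart from muscle replicate 2, both eyes arrays and brain cortex replicate 1 were at background.

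The small and large intestine differed by 5.49 on the log2 scale in Acot12, from 5.52 to 0.03. That is the contrast it was chosen from, and since neither large intestine array was above background its size is that of a difference from a background signal. The difference was 4.13 with each array centred on its median in place of loess, 6.07 with a smaller offset in the background correction and 7.03 in the authors' table.

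Large intestine replicate 1, the array that resembled small intestine, had no such resemblance in Acot12. Its ratio for Sis, the brush border sucrase-isomaltase, was 7.91, against 9.02 and 9.51 in small intestine and -0.46 in large intestine replicate 2. Cps1, the mitochondrial enzyme that feeds the urea cycle, was at 4.34 on that array, at 7.0 and 6.66 in small intestine and at -0.14 in the second large intestine array. Acot12 was at 0.06 and 0.00 on the large intestine arrays and above background on neither.

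Not all enterocyte markers followed Sis. Lct, lactase, was at 0.64 and 0.83 in large intestine and at 4.61 and 5.47 in small intestine, and Ada, adenosine deaminase, at 2.08 and 1.36 against 5.15 and 5.48. Alpi, intestinal alkaline phosphatase, differed little, with 3.47 and 3.03 in large and 3.69 and 4.39 in small intestine. Summed on the linear scale, the 5 enterocyte markers with a probe gave 595 and 841 in small intestine, 258 in large intestine replicate 1 and 14.2 in replicate 2, and Sis alone made up most of each of these sums but the last. Plet1, a marker of large intestinal epithelium, was high on both large intestine arrays, at 6.10 and 5.83. In small intestine it was at 0.65 and 0.08. Plet1 did not single out large intestine, with means of 6.25 in eyes, 5.97 in large intestine, 5.96 in bladder and 5.48 in stomach. The other large intestine marker with a probe, Mptx1, was high on all 4 intestinal arrays.

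**Figure D2:**
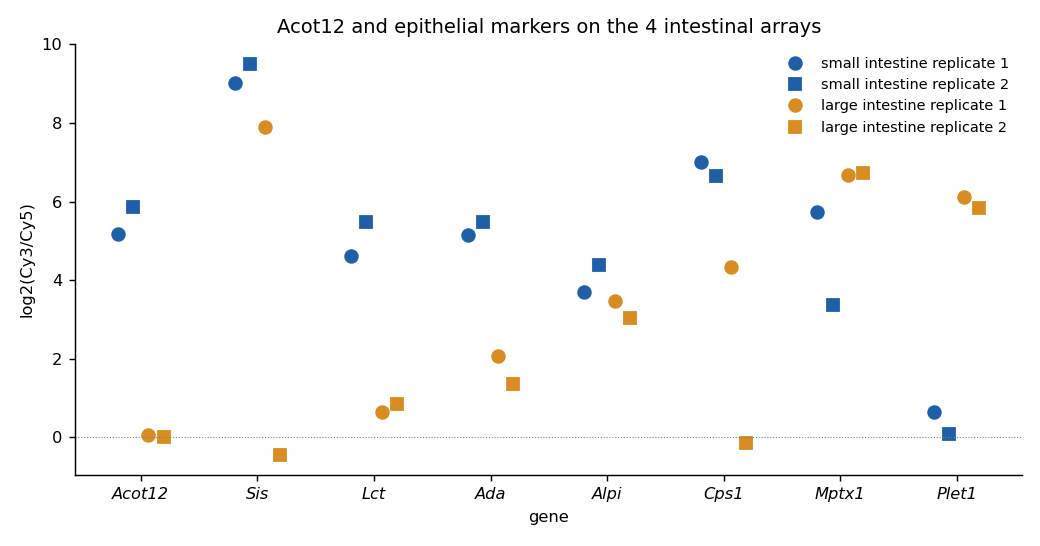
Points show log2(Cy3/Cy5) of Acot12, of the enterocyte markers Sis, Lct, Ada and Alpi, of Cps1 and of the large intestine markers Mptx1 and Plet1 on each of the 4 intestinal arrays. Large intestine replicate 1 reaches 7.91 in Sis and 4.34 in Cps1 but lies at 0.06 in Acot12 and 0.64 in Lct.

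The position of that array was also placed for all probes that were far higher in small intestine than in large intestine replicate 2. Of the 135 probes with such a difference of at least 4, large intestine replicate 1 lay more than 50% of the way toward small intestine in 81 (60%), with a median of 59.9% of the way. For Acot12 it lay 1.03% of the way, a value that the choice of the gene favours, since Acot12 was singled out for its difference between these same arrays.

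The labels of kidney and liver were checked against their markers. All 4 hepatocyte markers with a probe (Apoa2, Serpinc1, Agxt and Cps1) were above background on both liver arrays, and their linear sum was 609 and 665 there against 5.36 and 5.39 in kidney. Apoa2 did not single out liver, with means of 4.28 in cerebellum, 3.83 in brain cortex and 3.78 in liver, and it was above background on all 30 arrays. The 3 proximal tubule markers with a probe (Slc22a12, Slc23a3 and Aqp1) summed to 30.1 and 37.3 in kidney and to 5.57 and 5.64 in liver, but also to 28.8 and 29.7 in stomach. Slc23a3 was highest in stomach (4.78 against 4.5 in kidney) and Aqp1 in lung (3.14), and the high sum in stomach was that of Slc23a3, as Aqp1 was at -0.47 there and Slc22a12 at 0.08, against 2.80 and 1.95 in kidney. In small intestine the hepatocyte markers summed to 109 and 137, nearly all of it Cps1, while Serpinc1, antithrombin, was at 0.26 and 0.47 there against 5.25 and 5.36 in liver.

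The tissue pattern of Acot12 was a concentrated one by the information measure, the largest possible entropy over 15 tissues minus the entropy of the gene's shares. It held 2.20 bits of a possible 3.91, against a median of 0.16 bits over the 21019 probes past the filter on dim signals, and ranked 261 among them. The choice of the gene favours this rank, since the intestinal levels it was singled out for enter the measure. Taken from the replicate 1 arrays alone the information was 2.28 bits and from the replicate 2 arrays 2.19 bits. Of the summed linear ratio, kidney held 45.3%, liver 39.2% and small intestine 12.2%, and no other tissue more than 0.31%. Since 9 tissues had no measured level, the smaller shares are those of signals near background.

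Of 20 other thioesterases looked for, 10 had a probe with a symbol. In liver 4 of the 10 were called higher and 3 lower, in a contrast where 11.6% of all probes were called higher and 15.5% lower, and their median difference was -0.08 against -0.10 over all probes. In kidney 6 were called higher and 1 lower, where 10.1% of all probes were called higher and 9.9% lower, with a median of 1.13 against -0.11. In the intestine 1 was higher and 1 lower in small intestine, where 6.32% and 5.05% of all probes were called in these directions, and neither call remained with slide or with scan day as a block.

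Them7, a thioesterase superfamily member, came nearest to Acot12 in the size of its differences. Its ratio was 6.26 and 6.09 in kidney and 4.80 and 5.10 in liver, and it exceeded the mean of the other 12 tissues by 6.17 in kidney (SE 0.30, limma adjusted p = 5.21e-11) and by 4.84 in liver (SE 0.30, limma adjusted p = 6.68e-10). With processed signals its difference in liver was 7.54. Unlike Acot12 it was at -0.36 and -0.43 in small intestine and at -0.28 and -0.58 in large intestine, and above background on none of these arrays. Kidney and liver were thus shared by these genes, and small intestine was not. On fat replicate 1 it reached 2.03, against -0.10 on fat replicate 2.

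Acot4, a peroxisomal thioesterase of dicarboxylic acyl-CoAs such as succinyl-CoA, had the same 3 leading tissues as Acot12 at smaller differences. It was at 2.69 and 2.59 in kidney, 1.92 and 2.49 in liver and 2.10 and 2.27 in small intestine, and large intestine came next with 1.49 and 1.03. The differences from the other 12 tissues were 2.25 in kidney (SE 0.13, limma adjusted p = 4.76e-10) and 1.78 in liver (SE 0.13, limma adjusted p = 4.99e-09), the latter 1.08 with median centring. Between small and large intestine it differed by 0.93 (SE 0.19, limma adjusted p = 0.0023), below the size required for a call, and was called without large intestine replicate 1 (1.15, limma adjusted p = 2.6e-04), without small intestine replicate 1 (1.01), and with processed signals and in the authors' table (1.05 in each).

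Acot3, a peroxisomal long-chain thioesterase, was high in kidney (1.36 and 2.36) and liver (0.90 and 2.02) and near 0 in both intestines, from -0.32 to -0.01. The call in liver was lost without liver replicate 2, where the difference from the other tissues was 0.76, and with median centring, where it was 0.69. With processed signals the differences of Acot3 were 2.57 in liver and 4.25 in kidney. Acot8, another peroxisomal member of broad acyl-CoA range, was higher in liver by 1.15 and in kidney by 1.21 and was also high in the intestine, where large intestine at 1.38 and 2.55 lay around small intestine at 1.64 and 1.53. With median centring its difference in liver was 0.87 and no call. Acot1, the cytosolic long-chain member, was higher in kidney by 1.66 (limma adjusted p = 0.0026), a call lost without kidney replicate 2 (1.41), and differed by 0.26 in liver, which was no call (limma adjusted p = 0.61). Acot1, Acot2, Acot3, Acot4 and Acot6 are close copies in a gene cluster, so their signals may be mixed on an array and are uncertain one by one.

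Acot9, a mitochondrial thioesterase, went opposite ways in the leading tissues of Acot12. It was lowest of all tissues in liver, at -3.33 and -3.47, where its log2 difference from the other 12 was -2.67 (limma adjusted p = 9.54e-10), and was higher in kidney by 1.04 (limma adjusted p = 8.24e-05), which without kidney replicate 2 was 0.84 and no call. In small intestine it was at -0.43 and -0.65, and in large intestine at -1.0 and -3.17, a difference of 1.55 (SE 0.43, limma adjusted p = 0.018) that rested on large intestine replicate 2: it was 0.46 without that array and 2.63 without replicate 1. The call was also lost without either small intestine array, at 1.43 and 1.66. Acot7, the main brain thioesterase of long-chain acyl-CoAs, was lower in kidney, with a log2 difference of -1.31 (limma adjusted p = 2.88e-06), and in small against large intestine, with -1.21 (limma adjusted p = 0.0072), which became -1.81 and -0.61 without large intestine replicate 1 and 2. The kidney call of Acot7 was lost with median centring (-0.92), and the intestinal call without large intestine replicate 2 or without small intestine replicate 2 (-1.07). Acot6 was called lower in liver, with a log2 difference of -1.84, which was -3.06 with processed signals. Them6 was too, with -1.03, but not without liver replicate 1 (-0.79) or bone replicate 1, nor with the Cy3 level alone (-0.85). Acot2 was not called as fitted in liver or kidney against the other tissues, or between the intestines. Directly between liver and kidney it was, with a log2 difference of -1.05 (limma adjusted p = 0.0018). Its difference in kidney was 1.18 without kidney replicate 1, and it was called there with processed signals and in the authors' table (1.07 in each).

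**Figure D3:**
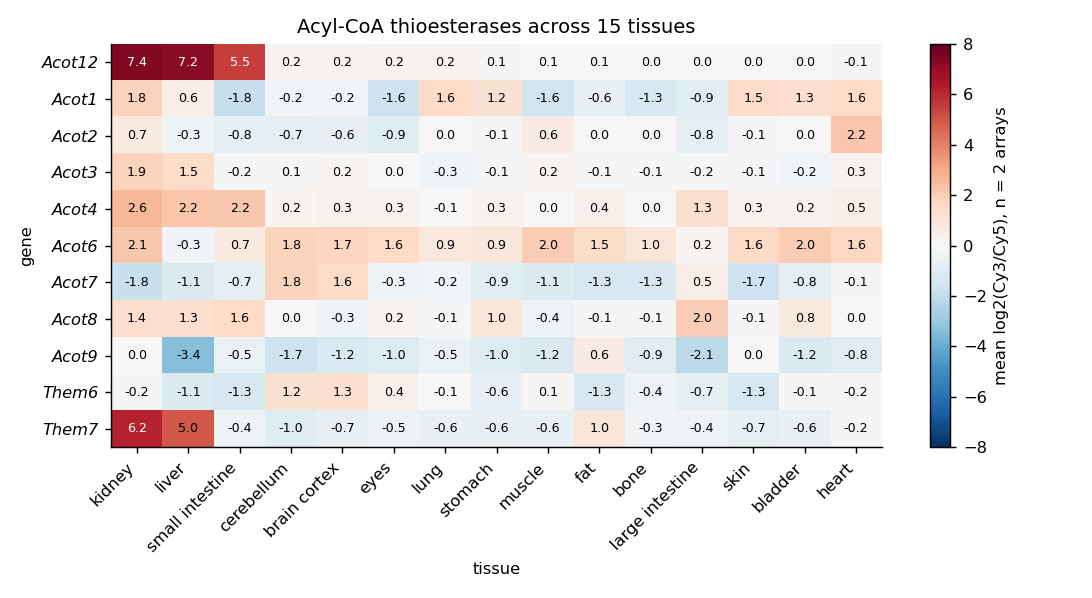
Each cell is the mean log2(Cy3/Cy5) of a thioesterase probe over the 2 arrays of a tissue, with tissues in the order of Acot12; a value is relative to the reference level of its own gene and is read along a row. Acot12 is high in kidney, liver and small intestine (7.41, 7.20 and 5.52), Them7 in kidney and liver only, and Acot4 in all 3.

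The genes that make and use acetyl-CoA were described next, as the substrate of Acot12 is theirs. Of 18 looked for, 7 had a probe, of which 4 were called higher and 1 lower in liver, beside 11.6% and 15.5% of all probes, and 4 were called higher and none lower in kidney, beside 10.1% and 9.9%. Acss2, the cytosolic enzyme that turns acetate back into acetyl-CoA, was at 4.31 and 4.56 in liver and 4.30 and 4.43 in kidney, and exceeded the other tissues by 2.48 (limma adjusted p = 1.94e-06) and 2.40 (limma adjusted p = 4.28e-06). In the intestine it was at 1.59 and 1.51 on the small and 2.27 and 2.68 on the large intestine arrays, a difference of -0.93 that was not called (limma adjusted p = 0.11).

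Acss1, its mitochondrial counterpart, parted liver from kidney. It was at -3.45 and -3.35 in liver, the lowest of all tissues, and at 3.80 and 3.98 in kidney, and the direct difference of -7.29 was called (SE 0.50, limma adjusted p = 5.15e-09). Acly, which makes acetyl-CoA from citrate in the cytosol, was higher in liver by 1.86 (limma adjusted p = 3.89e-08) and differed by 0.18 in kidney (limma adjusted p = 0.39). Acat1 and Acat2, thiolases that join acetyl-CoA units, were called higher in both organs, by 1.34 and 1.79 in liver and by 1.96 and 1.68 in kidney. Acly and Acat2 had their highest means in fat, at 2.19 and 0.85 against 1.82 and 0.69 in liver. Acat1 was highest in kidney at 3.07, with heart at 2.87 and liver at 2.49.

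Among the acyl-CoA synthetases, which make the bond that thioesterases cut, 5 of the 7 with a probe were called higher and 1 lower in liver, where 11.6% and 15.5% of all probes were called. In kidney 2 were called higher and 2 lower, against 10.1% and 9.9% of all probes. Acsl6 was lower in both organs, with log2 differences of -2.06 in liver (limma adjusted p = 7.97e-05) and -2.57 in kidney (limma adjusted p = 1.19e-05). Acsl3 was lower in kidney, with -1.03, at the edge of the rule: the call was lost without kidney replicate 2 (-0.97), muscle replicate 1 (-0.99) or bone replicate 2 (-0.99), and with every other normalisation except the smaller offset, with values down in size to -0.52 from the Cy3 level alone. Acsm3, a medium-chain synthetase, had the largest difference from the other tissues in both organs, 5.09 in liver and 5.54 in kidney, with ratios of 7.24 and 7.33 in liver and 7.77 and 7.64 in kidney. Its intestinal order was opposite to that of Acot12, with 3.15 and 2.44 in small and 5.74 and 5.05 in large intestine, a called difference of -2.60 (SE 0.36, limma adjusted p = 5.71e-05) that was -1.46 with processed signals and -1.90 in the authors' table and no call in either. Acsl1, the main long-chain synthetase of liver and fat, was higher in liver by 2.75 (limma adjusted p = 7.51e-10) and in small over large intestine by 1.71 (limma adjusted p = 6.59e-04), which was 1.11 without large intestine replicate 2 and 1.03 with slide as a fixed block.

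Of the 20 fatty acid oxidation genes with a probe, 12 were called higher in liver and 11 in kidney, beside 11.6% and 10.1% of all probes, and none lower in either, with medians of 1.21 and 1.07. The largest differences belonged to Acaa1b, a peroxisomal thiolase, with 3.98 in liver and 3.59 in kidney, and 6.95 and 5.79 with the Cy3 level alone. In small against large intestine 5 of the 20 were called higher and 1 lower, beside 6.32% and 5.05% of all probes, among them the acyl-CoA dehydrogenase gene Acad11 at 1.57 (limma adjusted p = 0.0021) and the peroxisomal transporter Abcd3 at 1.73 (limma adjusted p = 0.014), while Acads, the short-chain dehydrogenase, was lower, with a log2 difference of -1.69 (limma adjusted p = 0.0015) that was -1.1 with scan day as a fixed block and still called. The differences of Acad11 and Abcd3 were 2.22 and 2.97 without large intestine replicate 1, and 0.92 and 0.49 without replicate 2, where neither was called. With slide as a fixed block they were 0.81 and 0.43 and neither was called, and with scan day as a fixed block Abcd3 was at 0.78 and no call. Abcd3 also missed the adjusted p, at differences of similar size, without small intestine replicate 1 (1.67) or 2 (1.80) and with median centring (1.64). Acadm at 1.32 (limma adjusted p = 0.041) and Acaa1b at 1.46 (limma adjusted p = 0.043) passed narrowly: leaving out a single array ended their calls for 20 and 25 of the 30 arrays, and 7 of the 12 other settings did so for each. Without an array from outside the intestine the differences themselves were unchanged. Without large intestine replicate 2 they were 0.42 and 0.91, without replicate 1 they were 2.23 and 2.00, and with slide as a fixed block Acadm was at 0.24.

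Over all lists together, 47 genes other than Acot12 had a probe, of 118 looked for. Of these, 26 were called higher and 5 lower in liver, 23 higher and 3 lower in kidney, and 9 higher and 3 lower in small against large intestine. The percentages called higher were 55.3, 48.9 and 19.1, beside 11.6, 10.1 and 6.32 of all probes. The number of calls between the intestines, higher and lower, was 12 as fitted and fell to 4 with median centring. There 7 of the 8 lost kept a difference of over 1 and missed the adjusted p. With slide or with scan day as a fixed block 7 genes were called, not all of them among those 12. Acot7, Acot9, Acat1, Dld, Acadm and Abcd3 lost their calls under either block. Dld, one of the 9 and a subunit of the pyruvate dehydrogenase complex, was at 1.91 (limma adjusted p = 0.048) and lost its call without any one of 27 of the 30 arrays, mostly at the same difference and an adjusted p just above the threshold. Its value was 0.52 without large intestine replicate 2, 3.29 without replicate 1 and 0.12 with slide as a fixed block. The list of genes for making and breaking down coenzyme A had 2 members with a probe, Pank4 and Ppcdc, of which Ppcdc was called higher in liver by 1.01, at the very edge of the rule: the call was lost without liver, skin, fat or bone replicate 2, with values down to 0.82, with median centring (0.73), with the Cy3 level alone (0.85) and with slide as a random block (0.99). Stard3 was the only other START domain gene with a probe and was called in none of these contrasts. Acot11 had no probe with a symbol and was not analysed here.

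**Figure D4:**
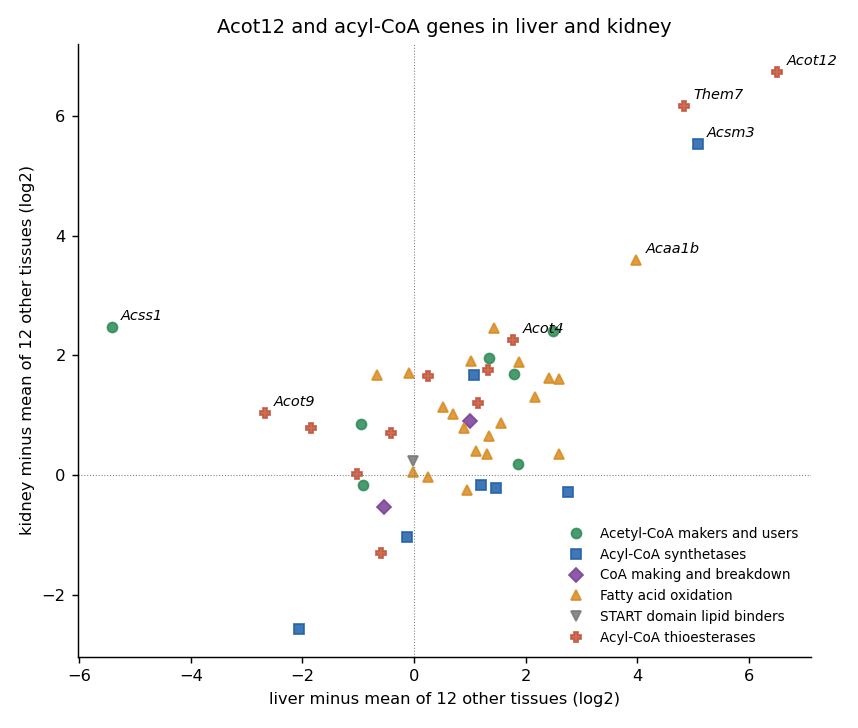
Each point is a listed gene, placed by its log2 difference between liver (x axis) or kidney (y axis) and the mean of 12 other tissues, with Acot12 at 6.51 and 6.74. Them7, Acsm3 and Acaa1b lie toward the same corner, and Acss1 lies far to the left at -5.42 in liver and 2.48 in kidney.

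The genes most like Acot12 were found by the Pearson r of their 15 tissue means with its own, over all 21018 other probes past the filter, 5046 of which had a symbol. The means share arrays and reference, and in Acot12 they form a high and a low cluster, so r rests mainly on the 3 high means and takes no account of the size of a gene's differences. It reached 0.9 for 39 probes, 9 of them with a symbol. With ranks in place of values none of the 10 named here stayed among the leading 10.

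The closest was 0610008F07Rik (now Hnf4aos, an antisense transcript at the locus of the nuclear receptor Hnf4a), with an r of 0.995. Its ratio was 5.98 and 5.71 in kidney, 6.24 and 5.13 in liver, and 4.69 and 4.48 in small intestine. All other arrays were at or below 0.85, the value of fat replicate 1. The large intestine arrays were at 0.59 and 0.26, so this probe too was low on both.

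Smlr1 (listed as 2010003K15Rik), a small leucine-rich membrane protein gene, followed with an r of 0.969. It was at 5.99 and 5.71 in kidney, 6.71 and 6.88 in liver, and 5.84 and 6.25 in small intestine. On large intestine replicate 1 it was at 4.07 and on replicate 2 at -0.12, the split that Sis showed and Acot12 did not.

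The others were 0610005C13Rik (r 0.957), Acot4 (0.931), 2210420H20Rik (0.927), Aldh9a1 (0.919), Chuk (0.909), Pdilt (0.904), Scly (0.903) and Ahcy (0.893). Aldh9a1 encodes an aldehyde dehydrogenase of carnitine synthesis, Chuk a kinase of the NF-kappaB pathway, Scly selenocysteine lyase and Ahcy the hydrolase of S-adenosylhomocysteine. In several of them the 3 tissues were uneven, with Pdilt at 5.46 in liver and 1.16 in small intestine and Ahcy at 4.29 and 1.28. For 2210420H20Rik small intestine at 0.36 lay near stomach at 0.24, and for Pdilt it lay near eyes at 0.86. For Scly and Ahcy small intestine exceeded large intestine by little, 0.68 against 0.57 and 1.28 against 1.1.

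**Figure D5:**
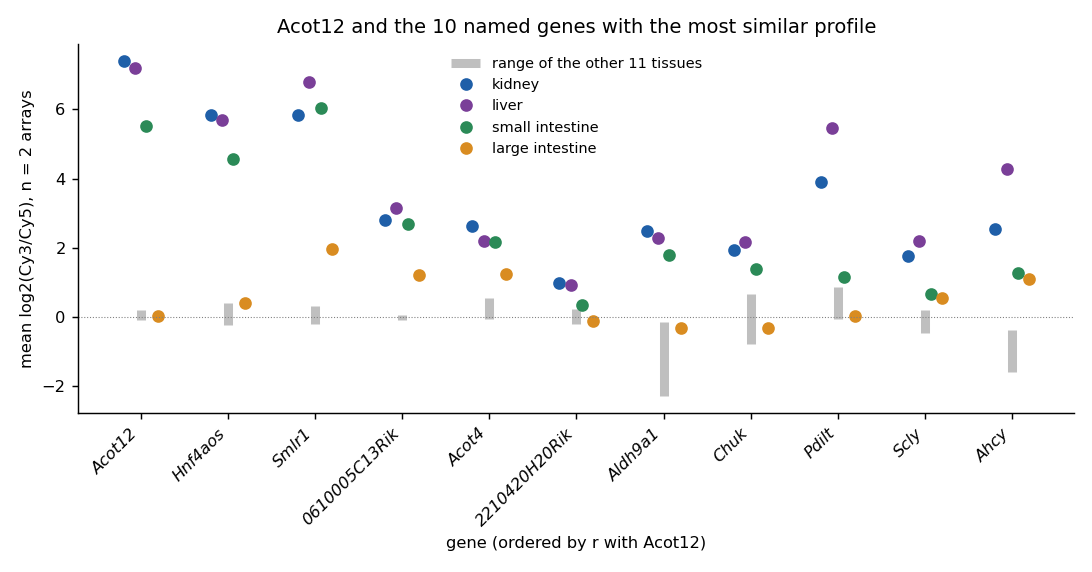
Points show the mean log2(Cy3/Cy5) of Acot12 and of the 10 named genes with the highest r in kidney, liver, small intestine and large intestine, and grey bars span the means of the other 11 tissues. Acot12, Hnf4aos and Smlr1 rise above 4 in kidney, liver and small intestine, while large intestine stays at 0.03 in Acot12, 0.42 in Hnf4aos and 1.98 in Smlr1.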

How the data were processed

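Per the file headers, image analysis by the authors used Agilent Feature Extraction, version 9.5.1.1. For each spot and channel the deposited files give a mean signal and a local background, each an intensity in scanner units, and marks of other kinds (outlier, saturated, well above background). The deposited value table is on a log10 scale, a Cy3 level corrected for the reference. It served here to choose probes and as an alternative.

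Background was corrected here by normexp (offset 50, all spots), control and outlier spots were removed, and each array was normalised by loess (limma 3.58.1, R 4.3.3). Probes had to be well above background in Cy3 on the 2 arrays of 1 or more of the tissues fitted. One coefficient per tissue was fitted over all probes kept, to the 26 arrays outside the intestine for Acot12 in liver and kidney and to all 30 arrays for other genes between the intestines. Tests were two-sided, with Benjamini-Hochberg adjustment over all probes of a comparison, and calls needed a log2 difference of at least 1 beside an adjusted p under 0.05. The pipeline was tested on simulated data. The level set for tissues without signal used the Cy3 channel after loess and quantile scaling of the channels. It took per array the higher of the dimmest signal well above background and the probe's own.

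Named genes are Acot12, every thioesterase with a probe, other listed genes called in a contrast used (not all are printed) and the 10 named probes with the highest r. Cell type markers with a probe are named as well, as are Pank4 and Stard3, which were not called. The members and lists were chosen with earlier results of these data known. Symbols were updated through a mouse gene table (GRCm38.p6): of 5619 probes, 3479 had a current symbol, 1666 a synonym and 474 neither. Alternatives were other normalisations, filters, blocks and leaving out each array. The number of arrays limits the precision.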

Additional observations from a re-analysis of the deposited data

How the results depend on the processing

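Acot12 stayed called higher in liver and kidney under every alternative that could be fitted. Its difference lay between 5.17 and 8.31 in liver and between 5.90 and 8.34 in kidney, the lowest values with median centring and the highest in the authors' table, and between 6.12 and 6.90 and between 6.55 and 6.93 without single arrays. With the 14 arrays of the first scan day alone, an alternative chosen after seeing the data, it was 6.04 and 6.28 against the other tissues of that day. Slide or scan day as a fixed block could not be fitted for these contrasts, since liver and kidney share no slide or scan day with muscle, skin, stomach, fat or bone, directly or through other tissues. Liver minus kidney was never called, from -0.68 with median centring to 0.18 without liver replicate 2, and with scan day as a fixed block it was -0.21 (limma adjusted p = 0.46). The difference between the intestines in Acot12 was 4.13 with median centring, 6.07 with offset 16, 7.02 with processed signals and 7.03 in the authors' table, and between 5.14 and 5.83 without single arrays. The information was 2.00 bits, 1.95 with Cy3 alone, 2.27, 2.40 and 2.40 in the same order. Median centring left 0 of 10 other thioesterases and 4 of 47 listed genes called between the intestines, mostly through a higher adjusted p and not a smaller difference: Acot7 was then at -1.28 and Acot9 at 1.60 (limma adjusted p = 0.099 and 0.095). Cy3 alone left 1 thioesterase, and slide as a random block 0. With slide or with scan day as a fixed block, 0 thioesterases and 7 listed genes were called. Without single arrays these counts ran from 0 to 5 and from 4 to 17. The widest of them, 5 and 17, came without large intestine replicate 1. Of the 10 genes most like Acot12, 0 remained with Spearman rho and at least 8 under all other settings. The causes were not tested.

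Replicate numbers showed no common pairing of the arrays. This check cannot exclude one, since differences between replicates also carry slide and scan day. Over 105 pairs of tissues the correlation of replicate 1 minus replicate 2 lay between -0.25 and 0.34 (median 0.05), above 0.1 in 33. With a replicate block Acot12 remained at 6.51 in liver (limma adjusted p = 1.16e-14) and 6.74 in kidney, liver minus kidney at -0.21 (limma adjusted p = 0.50), and 2 thioesterases and 11 listed genes were called between the intestines against 2 and 12 without it.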
